A study of Mus musculus with 10 samples.

Results

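Mice that took cocaine by intravenous self-administration were compared with mice that took saline in the same way, across all genes measured in ribosome-bound RNA of striatal cells expressing the dopamine D1 receptor. The comparison rests on 6 of the 10 libraries of the series, namely the 3 titled cocaine self-administration and the 3 titled saline self-administration, taken by their titles. The study is described as a short-access design in adult mice, and the question was which RNAs bound to ribosomes of these cells differ with the drug. All mice carried the Drd1-TRAP CP73 transgene, an EGFP-tagged ribosomal protein L10a (EGFP/Rpl10a) driven by Drd1 sequences, on an FVB/N-Swiss Webster x C57BL/6 background bred for at least 9 generations to C57BL/6. The saline group therefore had the same transgene and the same kind of session. The other pull-downs, 3 from yoked control mice, entered the choice of tested genes, the scaling between libraries and the estimate of the spread. They were not part of the contrast itself, and their levels are given beside a few genes. The whole striatum was dissected, so dorsal and ventral parts were measured together, and anti-EGFP antibodies were used to pull down the tagged polysomes. The tag marks each cell in which the driver is active, and it reads RNA on ribosomes, not all RNA of the cell. Whether the 3 libraries of a group represent different animals, or pools of animals, is not stated by the labels, so p-values measure only how these samples vary, and that variation may be technical. In such bulk samples, fewer cells of a type and less RNA per cell cannot be told apart.

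The D1 receptor is a stimulatory receptor of the direct-pathway medium spiny neurons, the GABAergic projection neurons of the striatum that also make substance P and dynorphin. Cocaine blocks the dopamine transporter, so that dopamine accumulates outside the cell. D1 receptors then raise cyclic AMP, which acts through protein kinase A, DARPP-32 and ERK on transcription factors such as CREB and on activity genes of the Fos, Egr and Nr4a families. In models of drug taking this cell type is known for the build-up of a stable Fosb product and for altered chromatin enzymes, glutamate receptors and receptor scaffolds.

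Reads were counted per gene, and levels are given as counts per 1e+06 gene counts (CPM), scaled by TMM factors that align the bulk of genes between libraries. The 6 libraries held 12.5 to 33.4 times 1e+06 gene counts. The saline group had 21.4 ± 8.12 and the cocaine group 32.8 ± 0.634 times 1e+06 (SD, n = 3 each). Sequencing lane was 3 for saline and 1 for cocaine libraries, so that the lane and the drug cannot be told apart. Over the 11601 genes whose count averaged at least 50 in the 6 libraries, the median absolute log2 difference between 2 libraries was 0.155 to 0.206 within the saline group, 0.208 to 0.211 within the cocaine group and 0.130 to 0.277 between the groups. The 2 libraries most alike of all 15 pairs were saline 1 and cocaine 1. The first principal component (34.6% of the variance) set libraries 2 against libraries 3 in both groups, and the second (28.3%) set cocaine 2 and cocaine 3 apart from the other 4 libraries, cocaine 1 lying among the saline libraries. Single libraries also stood apart in RNA of other tissues or cells. Saline 1 held growth hormone RNA (Gh) at 322 CPM, where the other 5 libraries had at most 3.22, saline 3 held transthyretin RNA (Ttr) of the choroid plexus at 150 CPM against at most 3.95, and saline 2 held the vesicular acetylcholine transporter RNA Slc18a3 at 23.1 CPM against at most 2.50.

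Of the 14680 tested genes, none passed the threshold for a difference between cocaine and saline self-administration in the fit used here. This does not show that levels were equal, and alternative fits called up to 7 genes. The test was the quasi-likelihood F test of edgeR with Benjamini-Hochberg adjustment, a gene being called at an adjusted p under 0.05. It called 0 genes (0% of those tested), and the smallest adjusted p was 0.999. At an unadjusted p under 0.05 there were 417 genes, of which 263 (1.79% of those tested) were higher and 154 (1.05%) lower in cocaine. In this fit both shares together are below 0.05, the share that would fall there if no gene differed. The number of such genes was 1001 without yoked 3 and 864 without cocaine 1. It was 230 without cocaine 2, 246 without cocaine 3 and 230 without saline 3. DESeq2 called 1 gene, the clone AK155692, at 442 unadjusted genes, and limma-voom called 0 at 322. In the following a gene is described as separated where the 3 cocaine libraries all lay above, or all lay below, the 3 saline libraries. Of the tested genes, 937 (6.38%) were separated with higher and 746 (5.08%) with lower values in cocaine. For 3 against 3 libraries, separation in either direction has an exact permutation p of 0.1, so it is common without any difference. Counts of separated genes in the lists below are to be read beside these shares. No gene named below passed the test across all genes, so each value is a measurement with its error and not a called change.

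The size of the differences was limited, and the error shows how limited. The median log2 fold change over all genes was 0.0036, with 7432 genes above and 7248 below 0. Differences of more than 2-fold were seen in 448 genes, but in only 27 of the 11601 with an average count of 50 or more. For 10520 of those 11601 genes (90.7%) the 95% interval of the log2 fold change lay inside -1 and 1. The precision followed the level. The median half-width of the interval corresponded to a factor of 3.02 for the 2232 genes under 1 CPM, 1.60 for the 4123 genes between 1 and 10 CPM, 1.30 for the 6409 between 10 and 100 CPM and 1.25 for the 1916 above 100 CPM. A difference of 1.3-fold was therefore about the size of its own interval in a typical well-measured gene.

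**Figure D1:**
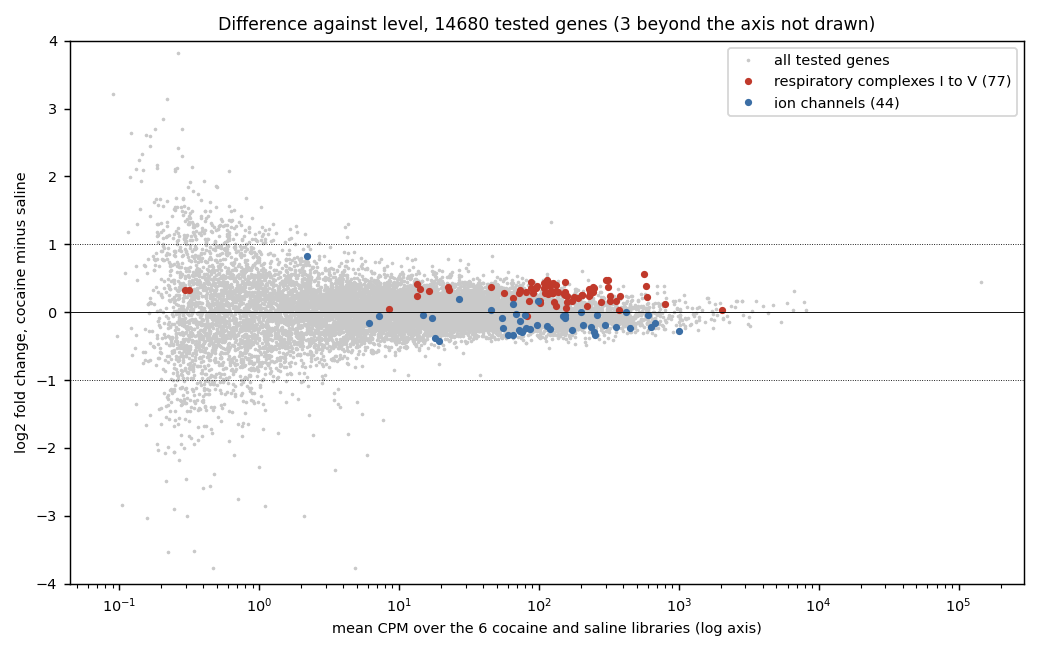
Log2 fold change (cocaine minus saline) against mean CPM over the 6 libraries, on a log axis, for each of the 14680 tested genes, with the 77 genes of respiratory complexes I to V in red and 44 ion channel genes in blue; dotted lines mark 2-fold. The cloud narrows with level, and the red points lie mostly above 0 and the blue points mostly below it, all within 2-fold.

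The transcripts that define D1 medium spiny neurons overlapped between the groups, with 1 exception among 12 markers. That share, 8.33%, is near the 6.38% of all tested genes separated with higher values. Drd1, the receptor itself, was at 670, 589 and 768 CPM in saline 1, 2 and 3 and at 693, 605 and 715 CPM in cocaine 1, 2 and 3. The ranges overlap, and the log2 fold change was -0.0095 ± 0.18 (SE), with a 95% interval of -0.40 to 0.38. Tac1, the substance P precursor, stood at 356, 253 and 423 CPM against 312, 285 and 436 CPM, so that libraries 2 were low and libraries 3 high in both groups. Pdyn, which encodes the dynorphin precursor, was at 124, 89.2 and 162 CPM in saline and 121, 118 and 143 CPM in cocaine libraries, a log2 fold change of 0.02 ± 0.20. The muscarinic receptor gene Chrm4 and the transcription factor gene Ebf1 also overlapped, at -0.18 ± 0.21 and -0.10 ± 0.13. Of the 12 D1 markers tested, 3 were higher and 9 lower, with a median log2 fold change of -0.020 that was -0.16 without saline 2 and 0.098 without saline 3. Of the 13 markers that D1 and D2 medium spiny neurons share, 10 were lower, with a median of -0.11 that ranged from -0.17 without cocaine 1 to -0.050 without cocaine 3. Isl1, a transcription factor of the direct pathway, was the only member whose groups did not overlap (44.3, 43.8 and 38.6 CPM in saline, 45.3, 52.0 and 44.5 CPM in cocaine), by a log2 fold change of 0.16 ± 0.16. Eya1 was the member with the smallest unadjusted p, at 862, 747 and 879 CPM in saline and 816, 694 and 651 CPM in cocaine libraries (-0.20 ± 0.13).

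RNA of other cells was present at low levels and followed the library more than the group. The 12 D2 medium spiny neuron markers, of the indirect-pathway neurons, summed to 603 to 794 CPM in saline and 679 to 753 CPM in cocaine libraries, against 2904 to 3665 and 2961 to 3308 CPM for the D1 markers. Penk, the enkephalin precursor, was at 163, 202 and 107 CPM in saline and 195, 185 and 166 CPM in cocaine libraries. The summed level of 12 astrocyte markers was 231 to 648 CPM in saline and 245 to 481 CPM in cocaine libraries, and that of 11 oligodendrocyte markers 271 to 693 and 262 to 519 CPM. Microglial markers summed to 8.91 to 21.0 and 10.7 to 19.1 CPM, and endothelial and mural markers to 4.22 to 10.9 and 3.19 to 7.02 CPM. In each of these 4 lists saline 2 was the highest of the 6 libraries, and the groups overlapped. No marker of these lists was at 0 in all 6 libraries. The list medians turned with 1 library. Without saline 2 the median log2 fold change of astrocyte markers was 0.52 and without saline 3 it was -0.16, and for oligodendrocyte markers the values were 0.62 and -0.39. Cortical glutamatergic markers were higher in 8 of 9 tested genes, with a median of 0.35 that was 0.036 without saline 1. Their sum was 139 to 197 CPM in saline and 171 to 222 CPM in cocaine libraries.

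Nuclear genes for the mitochondrial respiratory chain were higher in cocaine almost without exception. These genes encode the complexes that pass electrons to oxygen and the ATP synthase that uses the resulting proton gradient. Of the 77 tested subunit genes of complexes I to V, including cytochrome c, 76 were above 0, and their median log2 fold change was 0.28, or 1.22-fold, against 0.0036 for all tested genes. A total of 29 (37.7%) were separated with higher and 0 with lower values, against 6.38% and 5.08% of all tested genes. An unadjusted edgeR p under 0.05 was seen for 19, all of them higher, against 1.79% of all tested genes. None was called. The 77 genes were measured in the same 6 libraries, so their differences are not independent of each other. The lists were also chosen with earlier results of these data known. The shares given for this and the following lists are therefore descriptions and not tests. Leaving out 1 library at a time gave medians from 0.23 (without saline 3) to 0.37 (without cocaine 1). The mitochondrially encoded subunits were not analysed here.

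Complex IV, cytochrome c oxidase, the last step of the chain, held the member with the smallest unadjusted p. Cox8a was at 474, 454 and 445 CPM in saline 1, 2 and 3 and at 620, 685 and 714 CPM in cocaine 1, 2 and 3. The lowest cocaine library was above the highest saline library by a wide margin compared with the spread in either group. The log2 difference was 0.56 ± 0.14, with an unadjusted p of 0.00125 in edgeR. Cox6b1, a subunit at the face of the enzyme toward the intermembrane space, was at 288, 266 and 210 CPM against 317, 396 and 349 CPM, again without overlap. Cox4i1, which takes part in regulation of the enzyme by ATP, was at 575, 522 and 420 CPM against 526, 707 and 744 CPM, so that cocaine 1 lay within the saline range. All 12 genes of this list were above 0, from 0.047 for Cycs, cytochrome c, to 0.56 for Cox8a. Of them, 5 (41.7%) were separated with higher values, against 6.38% of all tested genes.

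Complex III, which passes electrons from ubiquinol to cytochrome c, had a median log2 fold change of 0.36 over 9 genes, all above 0. Of them, 5 (55.6%) were separated with higher values, against 6.38% of all tested genes. Cyc1, its cytochrome c1, was at 113, 108 and 98.7 CPM in saline and 127, 154 and 152 CPM in cocaine libraries, a log2 fold change of 0.44 ± 0.13. Uqcr10 was at 284, 250 and 247 CPM against 278, 402 and 406 CPM. Cocaine 1 lay here within the saline range, while cocaine 2 and cocaine 3 stood well above it. The core protein gene Uqcrc1 was separated, at 98.6, 101 and 85.6 CPM against 109, 111 and 147 CPM, the last value coming from cocaine 3.

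Complex I, the NADH dehydrogenase, had 36 of 37 tested genes above 0 and a median of 0.28. Of the 37, 14 (37.8%) were separated with higher values, against 6.38% of all tested genes. Ndufv3 was at 106, 104 and 94.7 CPM in saline and 111, 162 and 137 CPM in cocaine libraries (0.43 ± 0.14). The accessory subunit gene Ndufb2 was at 110, 92.2 and 86.4 CPM against 109, 154 and 135 CPM (0.46 ± 0.16), with cocaine 1 inside the saline range. The exception was Ndufs1, the largest core subunit, which carries iron-sulfur clusters. It was at 83.0, 79.6 and 89.9 CPM against 78.9, 74.7 and 90.4 CPM, a log2 fold change of -0.050 ± 0.20. The core subunit gene Ndufv1 was at 0.13 ± 0.15, with overlapping groups.

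The ATP synthase had 15 of 15 genes above 0 and a median of 0.26. Of them, 5 (33.3%) were separated with higher values, against 6.38% of all tested genes. Atp5j2, a membrane subunit, was at 121, 119 and 105 CPM in saline and 127, 167 and 159 CPM in cocaine libraries, and Atp5k at 144, 139 and 130 CPM against 148, 194 and 166 CPM. The catalytic subunits differed least. Atp5b (beta subunit) had a log2 fold change of 0.034 ± 0.12 and Atp5a1 (alpha subunit) 0.12 ± 0.13. The 4 genes of complex II, which also belongs to the citrate cycle, had a median of 0.13 and overlapped in each case. Sdhb, its iron-sulfur subunit, was highest at 0.28 ± 0.14, and Sdha, the flavoprotein, lowest at 0.03 ± 0.14.

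**Figure D2:**
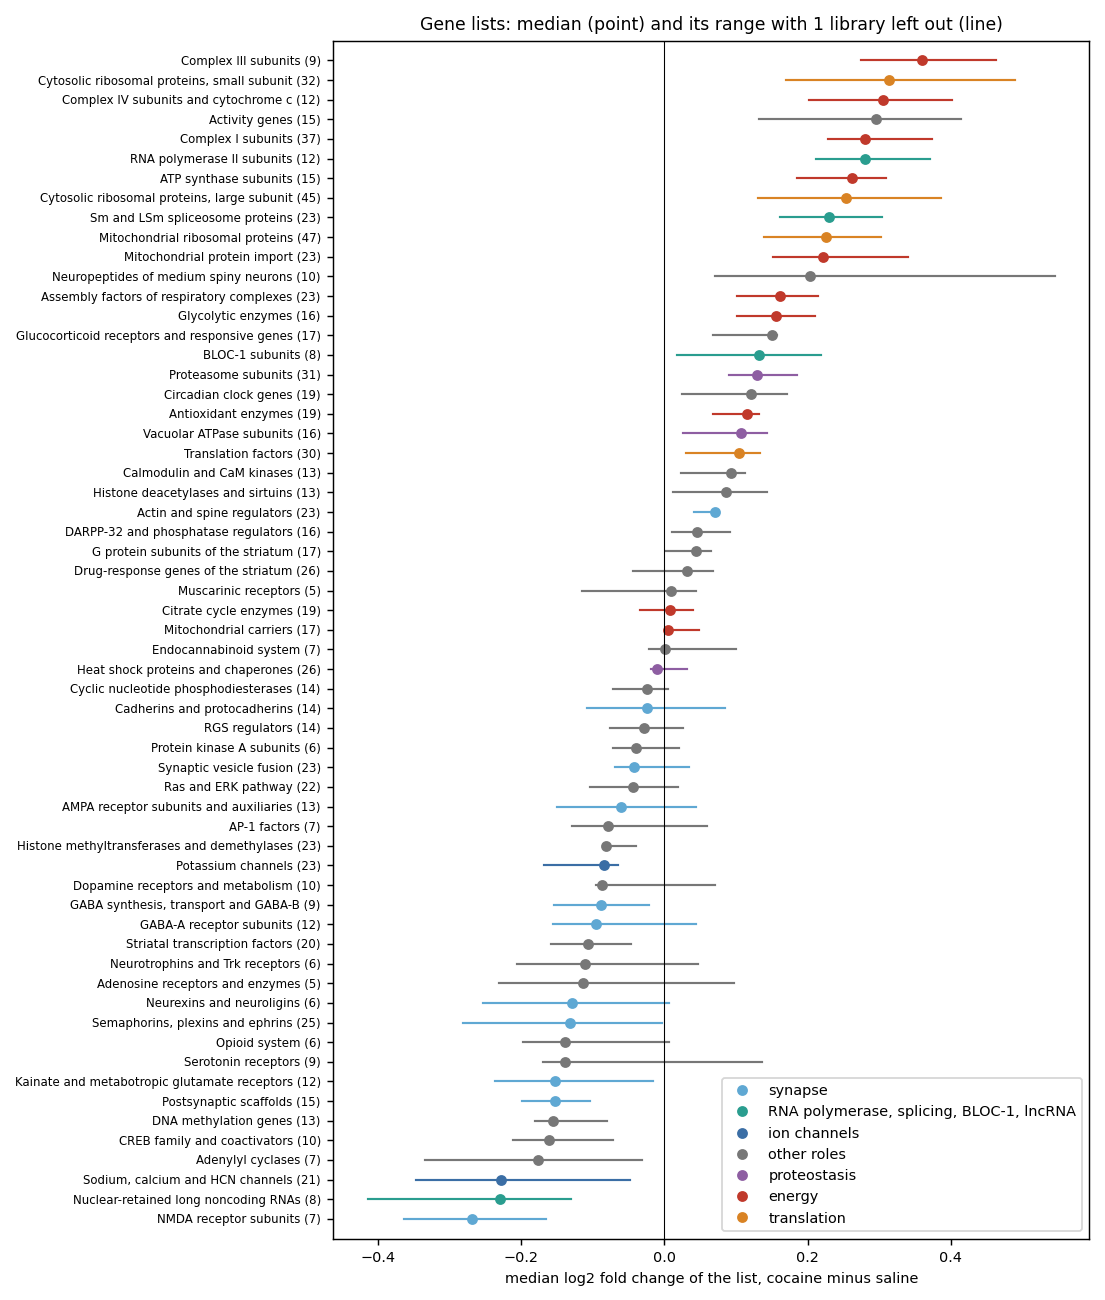
Median log2 fold change (cocaine minus saline) of each gene list outside the cell type lists with at least 5 tested genes (point; number tested in parentheses), with the range of the median when 1 of the 9 pull-downs is left out (line); colours give the role of the list. Complexes I, III, IV and the ATP synthase, and lists of ribosomal, splicing and RNA polymerase genes lie at 0.2 to 0.4 with lines clear of 0, and NMDA receptor subunits and sodium, calcium and HCN channels at about -0.2 to -0.3.

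Other groups of mitochondrial and energy genes differed from the respiratory subunits in degree. Assembly factors of the complexes were higher in 17 of 23 tested genes with a median of 0.16, led by Uqcc2 of complex III assembly (60.0, 57.3 and 53.1 CPM against 58.8, 95.6 and 92.6 CPM). Mitochondrial protein import genes had 17 of 23 higher and a median of 0.22. Tomm6, a small subunit of the outer membrane translocase, was at 72.3, 81.2 and 63.2 CPM in saline and 86.4, 113 and 87.2 CPM in cocaine libraries. Glycolytic enzymes had 13 of 16 higher, with a median of 0.16. Against 6.38% of all tested genes, 5 (31.25%) were separated with higher values. Among them were Ldha (165, 172 and 163 against 179, 192 and 204 CPM) and Pkm (0.20 ± 0.14). Citrate cycle enzymes had 11 of 19 higher and a median of 0.0080, and mitochondrial carriers 9 of 17 and 0.0050. Without normalisation factors these medians were -0.052 and -0.054, and that of all tested genes was -0.052 as well. Antioxidant enzymes had 12 of 19 higher and a median of 0.12, with 4 (21.1%) separated with higher values. Sod1, the cytosolic superoxide dismutase, was at 645, 635 and 556 CPM in saline and 736, 902 and 753 CPM in cocaine libraries (0.38 ± 0.14), and the peroxiredoxin gene Prdx2 at 103, 96.6 and 81.0 CPM against 104, 135 and 120 CPM.

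Genes for making and breaking down proteins and RNA followed the same direction. Cytosolic ribosomal protein genes were higher in 42 of 45 tested genes of the large subunit (median 0.25) and in 31 of 32 of the small subunit (median 0.31). Of these genes, 5 (11.1%) and 3 (9.38%) were separated with higher values, against 6.38% of all tested genes. Rps14 was at 46.5, 59.3 and 37.4 CPM in saline and 45.7, 87.7 and 82.2 CPM in cocaine libraries, so that cocaine 1 was low and the other cocaine libraries high. Over both subunits the median was 0.28, and it was 0.14 without cocaine 2 and 0.41 without cocaine 1. Such genes have near-identical pseudogenes, and the sources used here do not say how the deposited counts treat shared reads, so their values are uncertain. Mitochondrial ribosomal proteins had 45 of 47 genes higher, 8 (17.0%) separated, and a median of 0.23, which was 0.14 without cocaine 2. All 12 RNA polymerase II subunits were above 0, with a median of 0.28 and 5 (41.7%) separated. Polr2f, a subunit shared by the nuclear polymerases, was at 33.8, 36.0 and 27.9 CPM against 40.1, 55.4 and 47.0 CPM, and Polr2d at 19.9, 19.1 and 15.1 CPM against 27.4, 26.4 and 23.6 CPM. The 2 largest subunits, which form the catalytic centre, were nearest 0 in that list, Polr2a at 0.045 and Polr2b at 0.0063. Sm and LSm proteins, the core of the spliceosomal particles, had 20 of 23 higher and a median of 0.23. Snrpd3 was at 11.8, 11.0 and 10.7 CPM in saline and 17.9, 16.7 and 15.5 CPM in cocaine libraries (0.58 ± 0.17). Proteasome subunits had 28 of 31 higher, 8 (25.8%) separated, and a median of 0.13. Heat shock proteins and chaperones had 12 of 26 higher and a median of -0.0097.

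These list medians were not spread evenly over the libraries. For each gene the deviation of each library from the mean of the 6 was taken as log2(CPM + 0.5). The median deviation of complex I genes was -0.032 in saline 1, -0.11 in saline 2 and -0.27 in saline 3. The cocaine libraries 1, 2 and 3 were at -0.060, 0.25 and 0.21. Cocaine 1 thus lay between the saline libraries, and the difference rested on cocaine 2 and cocaine 3 at the top and saline 3 at the bottom. In complex IV genes (0.0024, 0.29 and 0.22 in cocaine 1, 2 and 3) and ribosomal protein genes (-0.16, 0.35 and 0.16), cocaine 2 was again highest, cocaine 3 next and saline 3 lowest. Cocaine 1 lay just above the saline libraries in complex IV genes and between them in ribosomal protein genes. The share of gene counts in the ribosomal RNA gene Rn45s was 11.4%, 16.9% and 20.5% in cocaine 1, 2 and 3, and 10.5%, 12.8% and 14.3% in saline 1, 2 and 3. It was thus highest in cocaine 2 and cocaine 3, and among the saline libraries in saline 3, where the complex I median was lowest. With Rn45s left out of the counts the respiratory median was 0.28. TMM scaling rests on the bulk of genes, so leaving out 1 row was bound to change little. The part of ribosomal RNA in these medians was not tested.

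**Figure D3:**
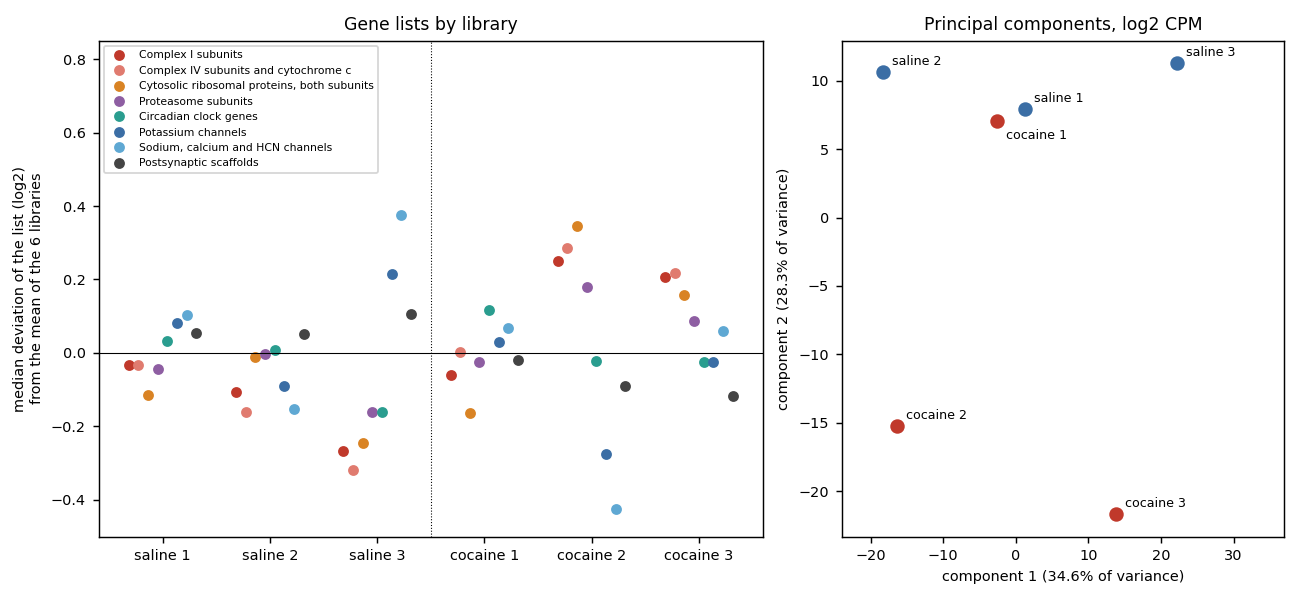
Left, median deviation of 8 gene lists from the mean of the 6 libraries (log2 scale) in each library; right, the first 2 principal components of the 6 libraries (log2 CPM of the 11601 better-counted genes), saline in blue and cocaine in red. Cocaine 2 and cocaine 3 have the highest respiratory and ribosomal medians and lie apart on the second component, and cocaine 1 lies close to saline 1.

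The length of the gene in the genome moved with the difference as well. Spans were known for 13937 of the tested genes, which were ordered by span and divided into 10 equal classes. The class with the shortest spans (median 2.74 kb) had a median log2 fold change of 0.16 with 72.5% of its 1394 genes above 0, and the class with the longest (median 244 kb) a median of -0.11 with 28.4% above 0. The medians of the classes in between followed that order. The respiratory genes have short spans, with a median of 7.28 kb against 25.0 kb for all genes. Within the shortest 3 classes the respiratory genes had medians of 0.29, 0.30 and 0.32, and the other genes of those classes had 0.16, 0.11 and 0.066. Other lists with higher values were short too, with median spans of 3.16 kb (cytosolic ribosomal proteins), 5.84 kb (RNA polymerase II) and 7.31 kb (mitochondrial ribosomal proteins). Among lists with lower values, ion channels had 208 kb and postsynaptic scaffolds 101 kb. Nuclear-retained RNAs and AP-1 factors, also with medians below 0, had 18.2 and 3.4 kb. In the shortest class the median deviation was -0.055, 0.18 and 0.089 in cocaine 1, 2 and 3, and -0.036, -0.052 and -0.13 in saline 1, 2 and 3. The part of span in the results was not tested further.

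The genes with the smallest unadjusted p, among separated genes averaging at least 50 counts, were named by rule, 12 in each direction. None passed. On the higher side stood 3 groups already described, through Cox8a, Cyc1, Polr2f and Snrpd3, and 2 subunits of BLOC-1, the complex that helps to form lysosome-related organelles and sorts endosomal cargo. Dtnbp1, which encodes dysbindin, was at 89.7, 85.9 and 94.6 CPM in saline and 112, 133 and 129 CPM in cocaine libraries (0.47 ± 0.13, chromosome 13, 44922079 to 45002096). Bloc1s1 was at 67.2, 65.5 and 55.1 CPM against 77.5, 104 and 84.9 CPM (0.50 ± 0.14). Of the 8 BLOC-1 genes tested 7 were above 0, with a median of 0.13 that was 0.018 without cocaine 2 and 0.22 without cocaine 1. Lin7b, a PDZ-domain adaptor that places receptors and channels at synapses, was at 94.0, 101 and 83.0 CPM in saline and 118, 152 and 143 CPM in cocaine libraries (0.57 ± 0.14, chromosome 7, 45367891 to 45370564). Rpain, which binds replication protein A, was at 9.85, 9.28 and 8.57 CPM against 13.1, 18.1 and 15.8 CPM (0.76 ± 0.18). Nt5c, a nucleotidase of the cytosol, was at 13.6, 14.4 and 13.0 CPM against 17.8, 23.4 and 20.8 CPM (0.60 ± 0.16). Cuta was the member with the least spread, at 111, 106 and 100 CPM in saline and 143, 142 and 138 CPM in cocaine libraries (0.41 ± 0.12). Fam117a, at 0.72 ± 0.21, was at 9.05, 9.79 and 14.5 CPM in cocaine and 6.52 to 7.19 CPM in saline libraries.

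On the lower side the named genes were of more varied function. Tshz2, a zinc finger transcription factor gene, was at 4.87, 7.74 and 3.83 CPM in saline and 2.20, 1.96 and 2.02 CPM in cocaine libraries. The cocaine values lay close together and the saline values spread over a factor of 2, with a log2 fold change of -1.40 ± 0.37 (chromosome 2, 169632509 to 170072751). Homer2, a scaffold that links metabotropic glutamate receptors to calcium stores, was at 8.58, 15.5 and 11.5 CPM against 8.22, 4.53 and 6.75 CPM (-0.86 ± 0.26, chromosome 7, 81600481 to 81706925). Saline 1 and cocaine 1 were nearly equal in that gene. Ndst2, an enzyme that modifies heparan sulfate, was at 9.25, 8.51 and 11.5 CPM against 6.64, 5.94 and 6.20 CPM (-0.64 ± 0.19). Cbfb, the partner of the Runx factors, was at 3.04 to 4.64 CPM in saline and 1.85 to 2.28 CPM in cocaine libraries. St8sia2, which adds polysialic acid to the neural cell adhesion molecule, was at 17.1, 13.2 and 15.2 CPM against 10.9, 11.5 and 10.4 CPM (-0.48 ± 0.17). Aff3, a transcription elongation gene, was at 188, 171 and 198 CPM against 167, 116 and 127 CPM, with the highest cocaine value in cocaine 1. Ttc39b, Arhgap19, Fam199x, Dusp11, Usp31 and Zfp12 completed the list, with log2 fold changes of -0.67 (Fam199x) to -0.38 (Usp31).

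**Figure D4:**
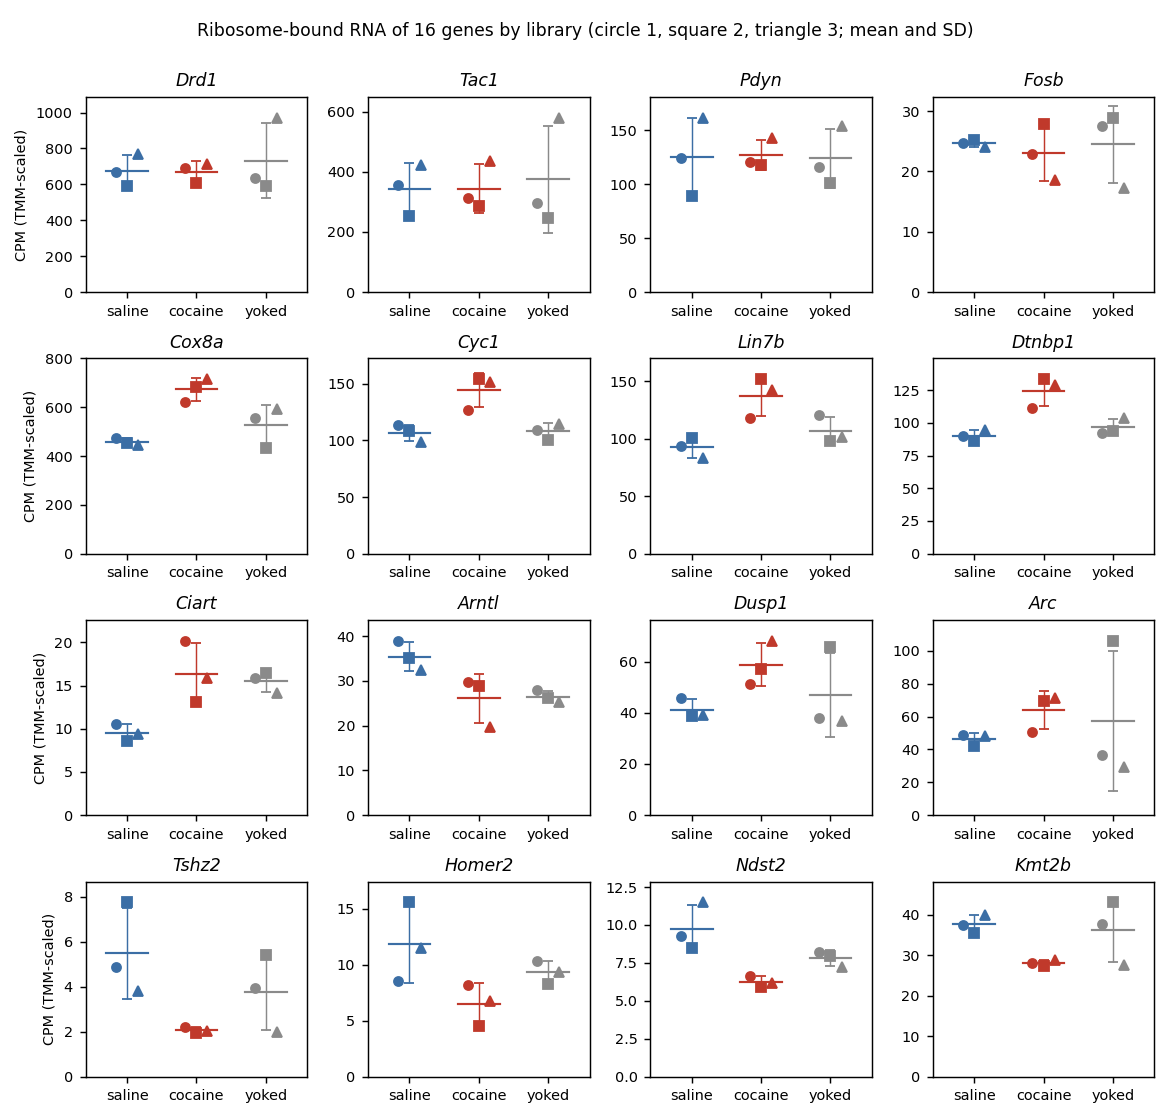
CPM of 16 genes in each saline, cocaine and yoked library (circle, square and triangle for libraries 1, 2 and 3), with the mean (horizontal line) and SD (bar, n = 3); axes start at 0. Drd1, Tac1, Pdyn and Fosb overlap between cocaine and saline, the other 12 do not, and for Cox8a the 3 cocaine libraries lie at 620 to 714 CPM against 445 to 474 CPM in saline.

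Genes for NMDA receptors, postsynaptic scaffolds and ion channels mostly had lower values in cocaine. Postsynaptic scaffold genes were below 0 in 14 of 15 tested genes with a median of -0.15. Against 5.08% of all tested genes, 5 of them (33.3%) were separated with lower values. Besides Homer2 these included Homer1, at 462, 496 and 468 CPM in saline and 449, 441 and 361 CPM in cocaine libraries, and Shank2, at 74.2, 72.6 and 84.9 CPM against 69.9, 64.3 and 71.4 CPM. NMDA receptor subunits were below 0 in 6 of 7 genes with a median of -0.27, and 1 (14.3%) was separated with lower values. The median level of these genes was 3.49 CPM. Between 1 and 10 CPM the typical interval spans a factor of 1.60 either way. Grin2b was at 206, 175 and 284 CPM in saline and 208, 157 and 188 CPM in cocaine libraries, with saline 3 standing above the other 5, and Grin2a at 28.1, 20.0 and 30.2 CPM against 24.1, 13.2 and 20.9 CPM. AMPA receptor genes had 9 of 13 below 0 and a median of -0.060, and GABA-A receptor subunits 8 of 12 and -0.095, but without saline 3 both medians were above 0, at 0.044. Sodium, calcium and HCN channel genes were below 0 in 19 of 21 cases with a median of -0.23, which was -0.047 without saline 3 and -0.35 without saline 2. Scn2b, an auxiliary sodium channel subunit, was separated, at 500, 438 and 511 CPM in saline and 417, 402 and 418 CPM in cocaine libraries. Potassium channel genes were below 0 in 19 of 23 with a median of -0.084, and Kcnd3, an A-type channel, was at 19.3, 21.7 and 25.2 CPM against 16.7, 14.4 and 18.1 CPM. Synaptic vesicle genes lay close to 0, with 13 of 23 below it and a median of -0.042. The channel genes are long, with a median span of 208 kb over both channel lists, and their median deviation was highest in saline 3 and lowest in cocaine 2. Actin and spine regulators went the other way in 16 of 23 genes with a median of 0.071, and Pfn1, which binds actin monomers, was at 218, 208 and 178 CPM against 264, 278 and 218 CPM. The highest saline and lowest cocaine value of Pfn1 came close to touching.

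Among circadian clock genes, the separated members comprised 2 activators with lower values and 5 repressors or output genes with higher values. The clock is a feedback loop in which the activators Clock, Npas2 and Arntl (BMAL1) bind E-box sequences and drive the repressors Per and Cry, the Nr1d nuclear receptors, Dbp and Ciart. Of the 19 clock genes tested 12 were above 0, and the median was 0.12 (0.025 without cocaine 1). Separated members were 5 with higher (26.3%) and 2 with lower values (10.5%), against 6.38% and 5.08% of all tested genes. Ciart, a repressor of the Clock and BMAL1 pair (chromosome 3, 95878500 to 95882257), was at 10.6, 8.59 and 9.40 CPM in saline 1, 2 and 3 and at 20.2, 13.1 and 15.9 CPM in cocaine 1, 2 and 3. Cocaine 1 was highest here, unlike in the respiratory genes, and the log2 fold change was 0.78 ± 0.19 (edgeR unadjusted p = 0.00121). In yoked 1, 2 and 3 Ciart was at 15.9, 16.5 and 14.2 CPM. Dbp, an output gene of the loop, was at 25.0, 25.4 and 19.0 CPM in saline and 28.7, 30.4 and 29.8 CPM in cocaine libraries (0.36 ± 0.22). Nr1d2 (0.21 ± 0.14), Per1 (0.19 ± 0.24) and Cry1 (0.16 ± 0.20) were separated by small margins. Cry1, for example, was at 35.4 to 36.7 CPM in saline and 39.7 to 41.4 CPM in cocaine libraries.

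The activators lay on the other side. Arntl was at 38.9, 35.0 and 32.4 CPM in saline and 29.7, 28.8 and 19.8 CPM in cocaine libraries, a log2 fold change of -0.44 ± 0.17 (edgeR unadjusted p = 0.022), and at a mean of 26.5 CPM in the yoked libraries. Npas2, the partner of BMAL1 in the forebrain, was at 257, 241 and 269 CPM against 231, 228 and 191 CPM (-0.24 ± 0.16). Clock itself overlapped, at 210, 222 and 218 CPM against 217, 202 and 168 CPM, as did Per2, Per3, Nr1d1 and Tef. Cry2 and Nfil3 were at -0.033 ± 0.15 and -0.025 ± 0.23. The sources used here do not give the time of day at which tissue was taken.

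Because the clock proteins act through E-boxes, the promoters of these genes were searched for CACGTG, which reads the same on both strands, in the window of 250 bases before to 50 bases after each start in RefSeq (GRCm38.p6). It was found in 5 of the 17 clock genes with an entry (29.4%), namely Ciart, Per1, Cry1, Bhlhe41 and Tef, and in 11.7% of the 11082 tested genes with one. All 5 of those clock genes were above 0, from 0.098 for Tef to 0.78 for Ciart. Of the 12 without these letters in this window 5 were above 0, among them Dbp (0.36) and Nr1d2 (0.21). The others, Arntl, Npas2 and Clock included, were below it. Bhlhe40 (0.36) and Per2 had no entry and were above 0 as well. E-boxes outside the window were not looked for, and a part of E-boxes in these values was not tested. The Ciart promoter (chr3:95882179-95882478, minus strand) is shown since it holds 3 copies, and the matching Per1 promoter (chr11:69098699-69098998, plus strand) since it holds 1. Capitals mark the motif, and a match is a description of the sequence.
Ciart: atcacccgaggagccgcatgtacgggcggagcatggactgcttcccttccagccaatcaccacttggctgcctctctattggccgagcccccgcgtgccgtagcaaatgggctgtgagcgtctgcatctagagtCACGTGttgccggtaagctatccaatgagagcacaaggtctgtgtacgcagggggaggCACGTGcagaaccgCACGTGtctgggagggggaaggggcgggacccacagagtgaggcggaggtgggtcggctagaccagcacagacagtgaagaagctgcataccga
Per1: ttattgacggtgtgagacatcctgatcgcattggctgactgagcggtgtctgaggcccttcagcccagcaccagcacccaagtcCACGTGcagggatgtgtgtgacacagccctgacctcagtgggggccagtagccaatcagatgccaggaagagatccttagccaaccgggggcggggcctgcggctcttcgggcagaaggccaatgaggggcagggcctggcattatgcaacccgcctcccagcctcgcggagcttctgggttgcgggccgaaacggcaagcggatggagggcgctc

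Activity genes, which neurons induce within minutes to hours of firing, gave a mixed picture with higher values for some of the fast responders. Of 15 tested, 10 were above 0, and the median was 0.30 (0.13 without saline 1). Separated members were 4 with higher (26.7%) and 1 with lower values (6.67%), against 6.38% and 5.08% of all tested genes. Dusp1, a phosphatase that switches off MAP kinases, was at 45.8, 38.6 and 39.1 CPM in saline and 51.3, 57.1 and 68.0 CPM in cocaine libraries (0.51 ± 0.21, edgeR unadjusted p = 0.0282). Btg2, an antiproliferative gene, was at 3.04, 2.09 and 2.91 CPM against 3.57, 4.93 and 9.13 CPM, with cocaine 3 standing apart. Arc, a regulator of AMPA receptor trafficking, was at 48.5, 42.2 and 48.5 CPM in saline and 50.6, 69.5 and 71.5 CPM in cocaine libraries (0.46 ± 0.42). Egr2 was separated too, at 11.8 to 16.9 CPM against 18.2 to 20.9 CPM. In the yoked libraries Arc was at 36.6, 106 and 29.3 CPM, which widens its standard error. Egr1 (773, 749 and 704 against 825, 851 and 708 CPM), Egr3 (-0.12 ± 0.13) and Npas4 (-0.02 ± 0.71) overlapped.

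Of the AP-1 factors, dimers of Fos and Jun proteins, Junb alone was separated, at 22.4, 21.8 and 19.9 CPM in saline and 23.0, 36.3 and 39.0 CPM in cocaine libraries (0.62 ± 0.30). Fos was at 3.21, 0.851 and 3.31 CPM against 2.53, 6.39 and 9.88 CPM. Cocaine 1 lay within the saline range, and the 95% interval of the log2 fold change reached from -0.16 to 2.76. Fosb, whose stable splice form accumulates under repeated drug exposure, was at 24.7, 25.1 and 24.1 CPM in saline and 22.9, 27.9 and 18.5 CPM in cocaine libraries (-0.09 ± 0.21, interval -0.54 to 0.35). Jun, Jund and Fosl2 were at -0.078 ± 0.22, -0.075 ± 0.19 and -0.081 ± 0.35. The counts are per gene, so the splice forms of Fosb were not told apart.

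**Figure D5:**
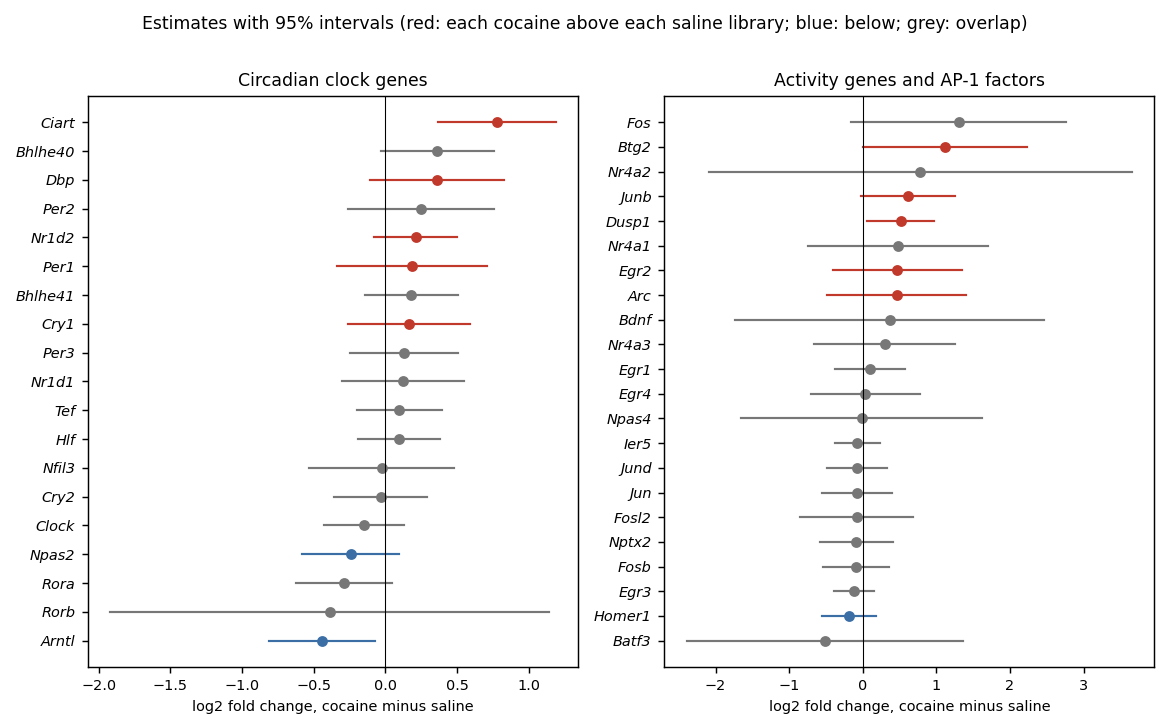
Log2 fold change (cocaine minus saline) with its 95% interval for the 19 circadian clock genes (left) and for the 22 tested activity genes and AP-1 factors (right); red marks genes whose 3 cocaine libraries all lay above the 3 saline libraries, blue the reverse, grey overlap. Ciart at 0.78 and Arntl at -0.44 have intervals that leave out 0, and Fosb, Egr1 and Egr3 sit near 0 with intervals across it.

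A list of 26 tested genes known from earlier work on drug responses of the striatum had 14 above and 12 below 0, with a median of 0.031. Without normalisation factors that median was -0.023, and the median of all tested genes was below 0 as well. Beside Arc, Per1, Homer1 and Homer2, the separated member was Hdac5, a histone deacetylase that leaves the nucleus on signalling, at 107, 108 and 102 CPM in saline and 115, 118 and 122 CPM in cocaine libraries (0.16 ± 0.21). Cdk5, a kinase that phosphorylates DARPP-32, was at 74.8, 84.5 and 75.6 CPM against 83.4, 106 and 98.3 CPM. The factors Mef2c (-0.03 ± 0.16), Mef2d (0.06 ± 0.24) and Nacc1 (-0.06 ± 0.16), the methyltransferase gene Ehmt2 (-0.01 ± 0.20) and the deacetylase gene Sirt1 (0.04 ± 0.19) overlapped. Bdnf was at 0.200 to 1.63 CPM over the 6 libraries, too low for an interval narrower than -1.74 to 2.47.

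Along the dopamine and cyclic AMP pathway most list medians were near 0, with that of the adenylyl cyclases below it. Dopamine receptor and metabolism genes had 3 of 10 above 0 and a median of -0.087, and protein kinase A subunits 2 of 6 and -0.040. Striatal G protein subunits had 10 of 17 above 0 and a median of 0.044. Without normalisation factors that median was -0.015, and the median of all tested genes was below 0 as well. Adenylyl cyclases had 2 of 7 above 0 and a median of -0.18, which was -0.031 without cocaine 2 and -0.33 without cocaine 3. Adcy5, the main adenylyl cyclase of the striatum, was at 547, 466 and 636 CPM in saline and 474, 376 and 523 CPM in cocaine libraries (-0.26 ± 0.16), and Adcy1, a cyclase driven by calcium, at 118, 108 and 130 CPM against 108, 70.5 and 99.2 CPM (-0.36 ± 0.16). DARPP-32 (Ppp1r1b) had a log2 fold change of 0.17 ± 0.17. Rgs2, which speeds the switching-off of Gq and is induced by D1 receptors, was separated, at 352, 376 and 317 CPM in saline and 416, 526 and 429 CPM in cocaine libraries (0.39 ± 0.16, edgeR unadjusted p = 0.0245). Pde7b, a phosphodiesterase that degrades cyclic AMP, was separated with lower values, at 882, 856 and 845 CPM against 772, 737 and 655 CPM (-0.26 ± 0.13). In the ERK pathway Rps6ka1, a kinase below ERK, was at 4.11, 3.95 and 3.26 CPM against 1.10, 1.53 and 2.87 CPM (-1.04 ± 0.38). Of 22 Ras and ERK genes, 2 (9.09%) were separated with higher and 4 (18.2%) with lower values. The shares of all tested genes were 6.38% and 5.08%.

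No tested member of the opioid, cannabinoid, neuropeptide or neurotrophin lists was separated. With so few genes per list, this does not set them apart from all tested genes (6.38% higher, 5.08% lower). Opioid genes had 2 of 6 above 0 and a median of -0.14, with the kappa receptor Oprk1 at 35.8, 37.7 and 54.3 CPM in saline and 34.7, 34.0 and 42.7 CPM in cocaine libraries, and the mu receptor Oprm1 at 17.2, 21.5 and 15.3 CPM against 14.9, 18.6 and 11.3 CPM. The delta receptor Oprd1 had its highest value, 10.4 CPM, in saline 2, the library that also held the most Slc18a3, and 1.47 to 3.09 CPM in the other 5. The cannabinoid receptor Cnr1 was at 408, 324 and 420 CPM against 345, 197 and 328 CPM. Neuropeptide genes had 9 of 10 above 0, with a median of 0.20 that ranged from 0.071 without cocaine 3 to 0.55 without cocaine 1. Cck, cholecystokinin, was at 17.6, 33.7 and 49.5 CPM in saline and 45.0, 49.2 and 84.2 CPM in cocaine libraries, higher in cocaine at each number but overlapping between groups. Ntrk2, the BDNF receptor, was at 200, 168 and 210 CPM against 171, 143 and 154 CPM (-0.31 ± 0.14). Glucocorticoid-responsive genes had 12 of 17 above 0 and a median of 0.15, with 2 (11.8%) separated in each direction. Mt1, a metallothionein, was separated with higher values (123, 104 and 118 against 135, 175 and 165 CPM) and Fkbp5, a chaperone of the receptor, with lower values (42.8, 39.9 and 39.7 against 33.6, 36.5 and 35.9 CPM).

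Chromatin and transcription factor genes lay slightly below 0. Histone methyltransferase and demethylase genes had 18 of 23 below 0 with a median of -0.081, DNA methylation genes 10 of 13 and -0.15, and CREB family and coactivator genes 9 of 10 and -0.16. Kmt2b, a histone H3 lysine 4 methyltransferase, was at 37.5, 35.4 and 40.0 CPM in saline and 28.2, 27.4 and 28.9 CPM in cocaine libraries (-0.42 ± 0.17). Here all 3 cocaine libraries, cocaine 1 included, lay close together below the saline range. Kmt2a, of the same family, was at 235, 190 and 314 CPM against 220, 130 and 197 CPM and overlapped. Of the factors that define striatal neurons, 15 of 20 were below 0. Bcl11b (CTIP2), a factor of medium spiny neurons, was at 708, 767 and 727 CPM against 677, 656 and 532 CPM (-0.24 ± 0.14), and Foxp1 at -0.19 ± 0.15. Deacetylases and sirtuins were above 0 in 9 of 13, with a median of 0.086. Nuclear-retained long noncoding RNAs, which are held mostly in the nucleus, were below 0 in 7 of 8 with a median of -0.23. Malat1 was at 179, 188 and 169 CPM in saline and 168, 122 and 119 CPM in cocaine libraries, so that cocaine 1 lay just under the saline range.

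Genes were also named for having the narrowest intervals around 0, so their closeness in the 2 groups follows from the choice. Among list members, the 8 with the narrowest interval around 0 included Idh3b, a subunit of a citrate cycle enzyme, at 255, 252 and 248 CPM in saline and 255, 250 and 249 CPM in cocaine libraries, with a 95% interval of -0.26 to 0.26. Dlst, of the same cycle, was at 80.3, 75.6 and 82.3 CPM against 77.5, 77.4 and 83.2 CPM. Gnb1, the G protein beta subunit, Eno2, the neuronal enolase, Mdh1, Tcp1, Hsph1 and Atp6v1b2 completed the 8, each with a log2 fold change between -0.02 and 0. The 95% intervals of these genes reached about 1.2-fold either way. Having been picked for such intervals, they do not show that levels were equal in the 2 groups.

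The gene with the smallest p of all, the clone AK155692, lies outside the rule for naming and is given because its values were seen. It was at 59.2, 77.5 and 74.6 CPM in saline and 159, 185 and 184 CPM in cocaine libraries, a log2 fold change of 1.32 ± 0.25 (edgeR unadjusted p = 1.11e-04, adjusted p = 0.999). In yoked 1, 2 and 3 it was at 141, 152 and 65.4 CPM, so that the yoked libraries covered both the saline and nearly the cocaine level. The reference table used here gave it no position and the files no function.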

How the data were processed

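TRAP-seq pull-downs were compared between 3 cocaine and 3 saline self-administration libraries. The deposited values are raw counts of reads for each gene symbol. The submitters' processing notes name STAR 2.0.0e, HTSeq and the mm10 build. Annotation, strand setting, counting mode and the version of HTSeq were not given in the sources used here, so reads of overlapping genes cannot be told apart. Of each file, 32531 gene rows were used and 6 rows naming no gene were left out. Reads in no annotated feature were 12.7% to 15.8% and ambiguous reads 2.58% to 2.98% of assigned, unassigned and ambiguous reads together in the 6 libraries.

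Counts of all 9 pull-downs were fitted with edgeR 4.0.16 in R 4.3.3 (TMM, filterByExpr with a minimum count of 10, robust quasi-likelihood F test, group as the only term), with the contrast cocaine minus saline, Benjamini-Hochberg adjustment over 14680 genes and a threshold of 0.05. The standard error was taken as the absolute log2 fold change over the square root of F, and 95% intervals use the t distribution. The input library entered no fit. The script was tested on simulated data. Alternatives were DESeq2 1.42.0, limma-voom (limma 3.58.1), other normalisations and filters, the 6 libraries alone, a replicate block, Rn45s left out and each pull-down left out in turn. Gene lists (74) are described by counts and medians, with no set test. The members and lists were chosen with earlier results of these data known. A rule set which genes could be named, and the text names only some of them. It took the 12 higher and 12 lower with the smallest unadjusted p among separated genes averaging at least 50 counts. Sex-linked, predicted, clone and small RNA genes were left out there. It also took up to 3 members per list with the smallest p and all members of 6 lists. The 8 list members with the narrowest interval around 0 were added. Others in the text were chosen after their values were seen. Spans and promoters came from RefSeq tables (GRCm38.p6), which matched 13937 of the tested symbols (94.9%). A count of 3, the detection floor, is 0.0663 to 0.239 CPM in the pull-downs and covers counting error only.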

Additional observations from a re-analysis of the deposited data

How the results depend on the processing

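The median of the respiratory genes kept its direction under all 19 alternatives (0.22 without normalisation factors, where the median of all genes was -0.052, to 0.37 without cocaine 1). The count of 0 called genes was 1 with DESeq2, 1 with only the cocaine and saline libraries and 0 to 1 with 1 library left out, the gene being AK155692 each time. The 417 genes at an unadjusted p under 0.05 became 751 with no filter, 840 with only the cocaine and saline libraries and 230 to 1001 with 1 library left out. Log2 fold changes near 0 turned sign. Without normalisation factors Pdyn was at -0.028, Atp5b at -0.024 and Polr2a at -0.0067, and Tac1 was at 0.0025 with no filter, 0.00070 with a mean count of at least 50 and 0.00072 with limma-voom. With 1 library left out the ranges were -0.099 to 0.094 for Drd1, -0.21 to 0.18 for Tac1, -0.17 to 0.25 for Pdyn, -0.25 to 0.041 for Fosb, -0.14 to 0.0095 for Ndufs1, -0.035 to 0.15 for Polr2a and -0.0042 to 0.43 for Penk. Why these values moved was not tested.

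With the replicate number as a block, 1 gene was called over the 9 pull-downs (Gh, whose level rests on saline 1) and 7 over the 6 libraries, namely Gh, AK155692, Cck, Cox8a, Hist1h4d, Lin7b and Sptb, with 1462 genes at an unadjusted p under 0.05. Over the 6 libraries the block put Cox8a at 0.55 (edgeR adjusted p = 0.00919) and Lin7b at 0.56 (edgeR adjusted p = 0.0135), while over the 9 pull-downs both had an edgeR adjusted p of 0.998. Over the 9 pull-downs and the 6 libraries it put Gh at -6.52 and -6.60, and Tac1 at 0.0054 and 0.0023. The labels do not say that equal numbers share a batch or animal. Same-numbered cocaine and saline libraries correlated in their deviations at 0.029, 0.34 and 0.35. Between these groups 6 of 6 libraries correlated best with their own number, but they form only 3 pairs. Deviations in a group sum to 0, so the correlations are not independent. Cocaine 1 was at -0.10 with yoked 1 and 0.18 with yoked 2, and cocaine 2 at 0.14 and 0.11. Cocaine 3 and each saline library correlated best with the yoked library of their number. The pattern is a hint from the data and not the design. Under 1 CPM the intervals span a factor of 3.02 either way, so a smaller difference in a gene at that level is within its typical interval.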
